A study of Mus musculus with 24 samples.

Results

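The genes described are the 5 Fc receptor genes of mouse microglia, taken as the rows of the deposited count table whose gene name is Fcer1g, Fcgr1, Fcgr2b, Fcgr3 or Fcgr4. They are 5 of 54532 genes in the table and were read in all 24 libraries. Each library came from the striatum of 1 hemisphere of 1 mouse. The groups were wild type (WT), deletion of Tyrobp (TyrobpKO), a single copy of the Q175 allele with Tyrobp intact (Q175), and a single copy of that allele together with the deletion (Q175_TyrobpKO), with 3 males and 3 females in each. All animals were labelled C57BL/6, and age was not stated. The Q175 allele carries an expanded CAG repeat in the mouse Huntingtin gene (Htt) and models Huntington's disease. The Tyrobp deletion is in every cell as far as the labels say, since they name no Cre or promoter. All animals of both deletion groups carry animal numbers with 1 prefix that no other animal has, so a colony difference that it may mark and the Tyrobp genotype cannot be told apart. The Q175 animals share a prefix with WT replicate 3 alone.

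Fc receptors bind the constant part of antibodies and let phagocytes take up antibody-coated material. The activating receptors of the mouse, Fcgr1 (the high-affinity IgG receptor), Fcgr3 and Fcgr4, have ligand-binding chains that signal through a shared partner, the common gamma chain encoded by Fcer1g. That chain carries an ITAM, a tyrosine motif that recruits the kinase Syk once Src-family kinases have phosphorylated it. Fcgr2b is the inhibitory receptor: it carries an ITIM, which recruits the phosphatase SHIP1. Tyrobp (DAP12) encodes another ITAM adaptor, used by Trem2 among others, so the design removes 1 of the ITAM adaptors of microglia and leaves Fcer1g in place. The comparisons asked what the Q175 allele and the Tyrobp deletion did to striatal RNA, each alone and together. For the Fc receptor genes, no difference between genotypes passed an adjusted p of 0.05 in the main test, and the levels below are given with that in view.

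Coordinates are those of the deposited table and match the mouse build GRCm38. Fcgr2b (ENSMUSG00000026656, chr1:170958617-170976547, minus strand), Fcgr4 (ENSMUSG00000059089, chr1:171018920-171029761, plus strand), Fcgr3 (ENSMUSG00000059498, chr1:171051174-171064935, minus strand) and Fcer1g (ENSMUSG00000058715, chr1:171229572-171234365, minus strand) lie within 275.7 kb of chromosome 1. Fcgr1 (ENSMUSG00000015947, chr3:96282909-96293969, minus strand) lies on chromosome 3. All 5 are protein-coding. Tyrobp lies on chromosome 7 and Htt on chromosome 5.

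Fcgr2b and Fcgr3 are close relatives, and a stretch of 129 identical bases in their coding sequences bears on how their reads were counted. It runs from base 278 to 406 of the coding sequence of Fcgr2b-201 and from 263 to 391 of that of Fcgr3-201 in GENCODE M21. In each gene 102 bases of it lie in exon 3 and 27 in exon 4, at chr1:170967980-170968081 and chr1:170966674-170966700 in Fcgr2b and at chr1:171057691-171057792 and chr1:171054167-171054193 in Fcgr3, all on the minus strand. It is shown in lower case because every base is shared:
Fcgr2b and Fcgr3 shared coding stretch: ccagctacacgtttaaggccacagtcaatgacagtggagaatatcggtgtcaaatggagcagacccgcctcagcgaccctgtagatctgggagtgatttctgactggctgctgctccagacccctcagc
Over the aligned coding bases the 2 genes were 83.5% identical. No other pair of members shared more than 14 bases in a row. Of the stretches of 50 bases in annotated Fcgr3 transcripts, 10.2% also occurred in Fcgr2b, and at 100 bases the share was 2.70%. In Fcgr2b, 4.48% of stretches of 50 bases were shared with Fcgr3, and 10.7% occurred in some other gene. No stretch of 50 bases in Fcer1g, Fcgr1 or Fcgr4 occurred in another gene. A read lying wholly in the shared stretch cannot be assigned to Fcgr2b or Fcgr3 alone, so the values of those genes are uncertain by the handling of such reads. Their handling was not stated in the sources read here.

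The bases before the start sites of Fcer1g, Fcgr3 and Fcgr1 are shown because the first pair had the most similar levels across libraries and Fcgr1 the least similar. They are from RefSeq on GRCm38.p6, read along the gene, and bases inside an annotated exon of the gene were left off. RefSeq held a window of 250 bases for each of the 5 members, and 2 for Fcgr3, which had 2 start sites. The Fcgr3 windows lie inside the span of that gene given above. Capitals mark matches, on either strand, to GAGGAA (a core bound by the myeloid factor PU.1) or TTCNNNGAA (the GAS element, known from genes that respond to interferon-gamma). The GAGGAA matches are read on the opposite strand:
Fcer1g, chr1:171234366-171234599, minus strand: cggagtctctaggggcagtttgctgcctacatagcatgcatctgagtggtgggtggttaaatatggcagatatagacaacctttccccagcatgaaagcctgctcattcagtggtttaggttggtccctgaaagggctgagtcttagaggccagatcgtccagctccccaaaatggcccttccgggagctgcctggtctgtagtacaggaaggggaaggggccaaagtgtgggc
Fcgr3, chr1:171059404-171059626, minus strand: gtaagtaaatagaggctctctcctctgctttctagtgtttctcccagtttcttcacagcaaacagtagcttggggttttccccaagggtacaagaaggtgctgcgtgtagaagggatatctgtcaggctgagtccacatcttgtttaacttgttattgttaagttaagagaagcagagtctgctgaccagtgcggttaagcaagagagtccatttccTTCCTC
Fcgr1, chr3:96293970-96294219, minus strand: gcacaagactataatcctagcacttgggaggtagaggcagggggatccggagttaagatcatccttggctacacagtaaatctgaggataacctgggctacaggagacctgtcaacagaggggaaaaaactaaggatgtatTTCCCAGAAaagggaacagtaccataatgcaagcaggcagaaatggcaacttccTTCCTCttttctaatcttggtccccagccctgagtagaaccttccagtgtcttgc
Positions give the leftmost base of a match, with -1 for the base before the start site. Fcgr1 had a GAS match at -109 and a GAGGAA match at -55. Fcgr3 had a GAGGAA match at -6 from 1 of its 2 start sites, which is at -15 from the other. Fcgr4 had the longer match GAGGAAGT at -24, which contains GAGGAA. Fcgr2b had a match to the ETS-IRF composite element, a joined site of both factor families, at -35, in bases that GENCODE M21 places in an exon. Fcer1g matched none of the 4 patterns. Of 32851 RefSeq windows of the same length, 23.3% held GAGGAA, 7.02% TTCNNNGAA, 2.44% GAGGAAGT and 2.30% the ETS-IRF composite. A match of letters is not a measurement of binding.

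Libraries held 25482686 to 34626720 counts. Tyrobp had 7.87 ± 1.15 CPM (read counts scaled to library size with TMM factors; SD, n = 6) in WT and 8.67 ± 2.09 in Q175, but 0.340 ± 0.0925 in TyrobpKO and 0.260 ± 0.0423 in Q175_TyrobpKO, so all 12 libraries labelled with the deletion were low. Htt was called lower in Q175 than in WT (log2 fold change -0.46 ± 0.057 SE, edgeR adjusted p = 3.02e-06). Markers of striatal projection neurons were present in every group. In TyrobpKO against WT all 12 had negative log2 fold changes (median -0.30, 0 called by edgeR). Of them, 6 were lower at an unadjusted edgeR p under 0.05, as were 3.95% of all genes. The part of this in the values of the members was not tested. Choroid plexus markers summed to 38.9 to 75.3 CPM in WT but to 4155 CPM in Q175 replicate 3, and 478 to 593 CPM in 3 other carriers of the allele, and values without Q175 replicate 3 are given for the tested members and, in Q175 against WT, for the calls in the pathway lists. The microglial index, the mean log2 level of 18 microglial marker genes that hold no member, averaged 0.05 for WT and -0.06 for TyrobpKO, and 0.12 for Q175 and -0.12 for Q175_TyrobpKO, with TyrobpKO replicate 2 lowest at -0.36. In bulk tissue, fewer microglia and less RNA per microglial cell cannot be told apart.

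The shared signalling chain was the most abundant member for its length. Fcer1g, per kilobase of gene length, had 8.36 ± 0.877 CPM per kb in WT (SD, n = 6), against 5.75 ± 0.866 for Fcgr3, 1.17 ± 0.236 for Fcgr1, 0.556 ± 0.0953 for Fcgr2b and 0.231 ± 0.153 for Fcgr4. The order Fcer1g, Fcgr3, Fcgr1, Fcgr2b, Fcgr4 held in 23 of 24 libraries, and in the remaining library Fcgr3 was above Fcer1g. Fcer1g and Fcgr3 were thus the only neighbours in the order that changed places in a library. The order rests on the deposited gene lengths, 874 bases for Fcer1g and 5790 for Fcgr2b. In CPM without length scaling the WT means were 9.99 for Fcgr3, 7.31 for Fcer1g, 3.22 for Fcgr2b and 3.04 for Fcgr1. Over all libraries the mean level per kb of Fcer1g was 1.39 times that of Fcgr3, 5.95 times that of Fcgr1 and 13.7 times that of Fcgr2b. Set against the 3 activating chains together, Fcer1g stood at a ratio of levels per kb of 1.17 ± 0.105 for WT, 1.06 ± 0.117 for TyrobpKO, 1.09 ± 0.0933 for Q175 and 1.08 ± 0.228 for Q175_TyrobpKO. Where Tyrobp was intact it was above Fcer1g per kb, by 1.41 ± 0.163 times in WT and 1.43 ± 0.272 times in Q175.

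**Figure D1:**
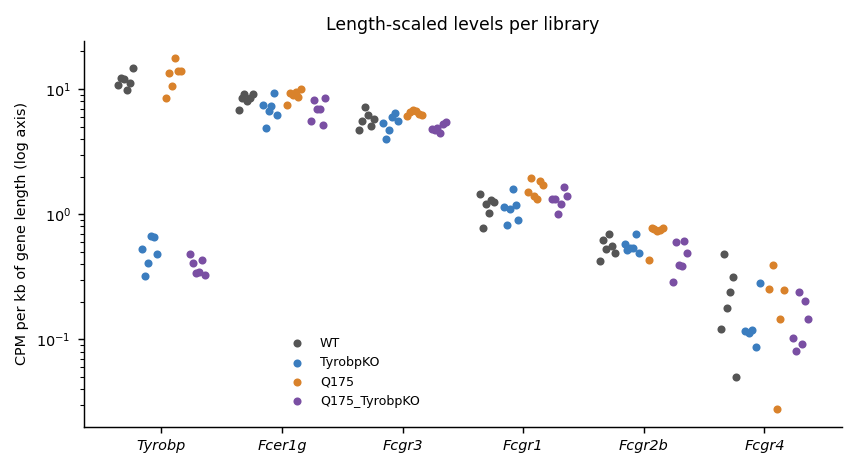
Level per kilobase of gene length (CPM per kb, log axis) of Tyrobp and the 5 Fc receptor genes in each library, coloured by genotype. Among the Fc receptor genes, Fcer1g and Fcgr3 form the upper pair in every genotype, Tyrobp lies above them on average in WT and Q175 and is low in the 12 deletion libraries, and the 2 libraries with 0 reads of Fcgr4 are not drawn.

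Markers of lymphoid and other blood cells that bear Fc receptors were low. Of the border macrophage markers, Cd163 and Stab1 alone were not low. The others had means over all libraries from 1.11 CPM (Mrc1) down to 0.0970 CPM (Cd209f). The list of natural killer, T and mast cell markers summed to 0 to 0.499 CPM in a library over its 11 genes, with Klrb1c at 0 reads in all 24, and Fcer1g is known from those cells too. Monocyte and neutrophil markers summed over 12 genes to 0.719 to 1.31 CPM for WT, 0.293 to 1.90 for TyrobpKO, 1.28 to 4.45 for Q175 and 0.921 to 3.39 for Q175_TyrobpKO, and Ly6c2 was at 0 in 13 libraries. Of the 2 that could be tested, S100a9 was called higher in Q175 than in WT by edgeR. The part of these cells in the values below was not tested. Border macrophage markers summed to 24.1 to 38.1 CPM over all libraries, of which Cd163 and Stab1 made up most (means of 14.7 and 14.1 CPM over all libraries), and edgeR called none of 4 tested in any contrast, with 1 at an unadjusted p under 0.05 in each of TyrobpKO against WT (lower), the average deletion effect (lower) and the interaction (higher).

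Fcer1g, the adaptor that remains when Tyrobp is deleted, had its lowest group means in the deletion groups. In WT its libraries ran from 5.94 to 8.05 CPM with a median of 7.39, and in Q175 from 6.58 to 8.83 with a median of 8.02. In TyrobpKO they ran from 4.28 to 8.22 with a median of 6.10, and in Q175_TyrobpKO from 4.50 to 7.37 with a median of 6.07. The Q175_TyrobpKO libraries were all below the Q175 mean, but they overlapped with Q175, since the lowest Q175 library lay under 2 of them. Against Q175 the log2 fold change was -0.39 ± 0.13 (SE; edgeR's quasi-likelihood test, unadjusted p = 0.00645, adjusted p = 0.661). The deletion without the Q175 allele gave -0.26 ± 0.13 against WT (edgeR adjusted p = 0.749). Averaged over both deletion contrasts, which sets 12 libraries against 12, it was -0.33 ± 0.094 (edgeR unadjusted p = 0.00169, adjusted p = 0.254), the 131st smallest p of 19667 genes. Q175 against WT gave 0.11 ± 0.13 (edgeR adjusted p = 0.692). The approximate 95% interval of the averaged difference ran from -0.51 to -0.14, on the lower side of 0, before any adjustment over genes.

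Fcgr3, the most abundant ligand-binding chain, was narrowly spread in both groups with the Q175 allele. Its libraries ran from 10.6 to 11.8 CPM in Q175, with a median of 11.1, and from 7.75 to 9.43 CPM in Q175_TyrobpKO, with a median of 8.43. All 6 Q175_TyrobpKO libraries were below all 6 Q175 libraries, and Fcgr3 was the only member for which those groups did not overlap. Of all genes tested, 0.300% were separated in that direction. WT libraries ran from 8.22 to 12.4 CPM, with a median of 9.78, and TyrobpKO libraries from 6.98 to 11.2, with a median of 9.55, and these 2 groups overlapped widely. Q175_TyrobpKO against Q175 gave a log2 fold change of -0.39 ± 0.10 (edgeR unadjusted p = 0.000766, adjusted p = 0.255). Its adjusted p was 0.0756 by DESeq2 and 0.245 by limma-voom. Without Q175 replicate 3, the library of highest choroid plexus markers, Fcgr3 had -0.36 ± 0.11 in that contrast (edgeR adjusted p = 0.577), Fcer1g -0.38 ± 0.14, Fcgr2b -0.57 ± 0.18 and Fcgr1 -0.33 ± 0.17. Q175 against WT gave 0.16 ± 0.10 (edgeR adjusted p = 0.360) and the deletion alone -0.11 ± 0.10 (edgeR adjusted p = 0.828).

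Fcgr1, the high-affinity receptor, was the member with the largest difference between Q175 and WT. Its libraries ran from 3.45 to 5.09 CPM in Q175, with a median of 4.18, and from 2.02 to 3.77 CPM in WT, with a median of 3.19. All 6 Q175 libraries were above the WT mean and 4 were above the highest WT library. The log2 fold change was 0.47 ± 0.16 (edgeR unadjusted p = 0.00736, adjusted p = 0.0658), just over the threshold. It passed with DESeq2 (adjusted p = 0.0367) and with library totals in place of TMM factors (edgeR adjusted p = 0.0312), and in edgeR without WT replicate 1 (adjusted p = 0.0366) or without Q175 replicate 4 (adjusted p = 0.0420). Without Q175 replicate 3 it was 0.50 ± 0.17 (edgeR adjusted p = 0.0703). It did not pass with limma-voom (adjusted p = 0.0565), and over all alternatives its edgeR, DESeq2 or limma adjusted p ran from 0.0312 to 0.449. TyrobpKO libraries ran from 2.14 to 4.10 CPM and Q175_TyrobpKO libraries from 2.62 to 4.28. Q175_TyrobpKO against TyrobpKO, the same allele without Tyrobp, gave 0.24 ± 0.16 (edgeR adjusted p = 0.480), and Q175_TyrobpKO against Q175 gave -0.30 ± 0.16 (edgeR adjusted p = 0.839).

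Fcgr4 was close to the limit of detection, with 143 reads in all libraries together. It had 0 to 17 reads in a library, and the libraries with 0, TyrobpKO replicate 3 and Q175 replicate 1, each allow up to 0.116 CPM (3 counts; counting error only). Group means were 0.290 ± 0.192 CPM for WT, 0.151 ± 0.116 for TyrobpKO, 0.224 ± 0.189 for Q175 and 0.180 ± 0.0808 for Q175_TyrobpKO, and every pair of groups overlapped. It did not pass the filter on low counts, so 4 of 5 members were tested. With no filter its largest difference was -0.91 ± 0.65 in TyrobpKO against WT (log2, edgeR adjusted p = 0.821). A difference in Fcgr4 was not detectable at this depth.

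The inhibitory receptor Fcgr2b had the largest difference of any member between the 2 groups that carry Q175. Its libraries ran from 2.52 to 4.49 CPM in Q175, with a median of 4.35, and from 1.68 to 3.52 CPM in Q175_TyrobpKO, with a median of 2.58. The Q175 libraries other than replicate 1 lay between 4.28 and 4.49 CPM, above every Q175_TyrobpKO library, and replicate 1, at 2.52, lay inside their range. The log2 fold change was -0.61 ± 0.17 (edgeR unadjusted p = 0.00137, adjusted p = 0.359). WT libraries ran from 2.47 to 4.03 CPM and TyrobpKO libraries from 2.82 to 3.998, and the deletion alone gave 0.01 ± 0.17 (edgeR adjusted p = 0.996). The difference between the 2 deletion effects was -0.62 ± 0.24 (interaction term, edgeR unadjusted p = 0.0164, adjusted p = 0.999), so a dependence on the Q175 allele was not established. Q175 against WT gave 0.34 ± 0.17 (edgeR adjusted p = 0.232).

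**Figure D2:**
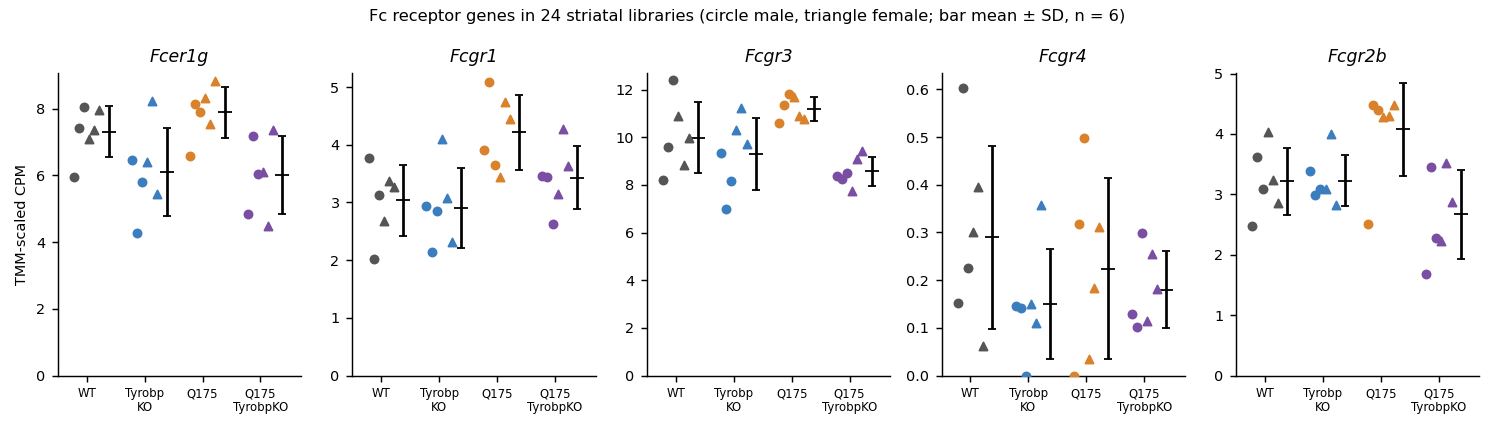
TMM-scaled CPM of the 5 Fc receptor genes in each library by genotype, circles for males and triangles for females, with the mean and SD of 6 libraries at the right of each group. The Q175 and Q175_TyrobpKO libraries of Fcgr3 do not overlap, and 1 Q175 library of Fcgr2b lies apart from the other 5.

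Counted over the members, Q175 against WT had 0 of 4 called by edgeR, where 9.63% of all tested genes were called, and 1 of 4 by DESeq2, which called 12.8% of the genes it gave an adjusted p. Without Q175 replicate 3 the log2 fold changes of Fcer1g, Fcgr2b and Fcgr3 were 0.10 ± 0.14, 0.30 ± 0.18 and 0.14 ± 0.11. Fcgr1 alone had an unadjusted p under 0.05, a share near the 22.6% of all genes. Q175_TyrobpKO against Q175 had 0 of 4 called by edgeR, DESeq2 and limma-voom, where those tools called 0.158%, 0.265% and 0.168% of all genes. All 4 tested members had negative log2 fold changes there (median -0.39), as did 50.3% of all genes, and Fcer1g, Fcgr3 and Fcgr2b had an unadjusted p under 0.05, as did 6.04% of all genes. TyrobpKO against WT had 0 of 4 called by edgeR (0.117% of all genes) and none at an unadjusted p under 0.05 (6.45%). Q175_TyrobpKO against TyrobpKO had 0 of 4 called by edgeR (5.86% of all genes) and none at an unadjusted p under 0.05 (18.4%), and Q175_TyrobpKO against WT had 0 of 4 called by edgeR (9.44%), with Fcer1g (-0.28 ± 0.13) and Fcgr3 (-0.22 ± 0.10) at an unadjusted p under 0.05 (22.3% of all genes). These contrasts share libraries: Q175 enters the first and second of them, so a high Q175 library raises one and lowers the other. The average deletion effect had 0 of 4 called by edgeR (0.208% of all genes), with Fcgr3 at -0.25 ± 0.072 and Fcgr2b at -0.30 ± 0.12 beside Fcer1g at an unadjusted p under 0.05 (8.89% of all genes). The interaction had 0 of 4 called by edgeR (0.00% of all genes, with 707 genes, 3.59%, at an unadjusted p under 0.05, 2 genes called by DESeq2 and 0 by limma-voom).

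The members were also read against the other microglial genes, since all 18 genes of the microglial index had negative log2 fold changes in Q175_TyrobpKO against Q175 (median -0.25, 0 called by edgeR, 11 at an unadjusted p under 0.05). Scaling libraries by that index in place of TMM moved the median of all genes in that contrast to 0.24, and 21.4% of all genes were then called by edgeR. On that scale the difference for Fcgr3 in that contrast shrank from -0.39 to -0.14 ± 0.095 (edgeR adjusted p = 0.243) and that for Fcer1g from -0.39 to -0.16 ± 0.12 (adjusted p = 0.315). Fcgr1 had -0.06 ± 0.17 (edgeR adjusted p = 0.805). Fcgr2b kept the largest value, -0.36 ± 0.17 (edgeR adjusted p = 0.107), and passed the threshold without Q175 replicate 1 (adjusted p = 0.0490), where 34.0% of all genes were called, so that call is no result about Fcgr2b. In Q175 against WT the median of the index genes was 0.04, and index-scaled Fcgr1 was at 0.39 ± 0.17 (edgeR adjusted p = 0.198, with 6.84% of all genes called).

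**Figure D3:**
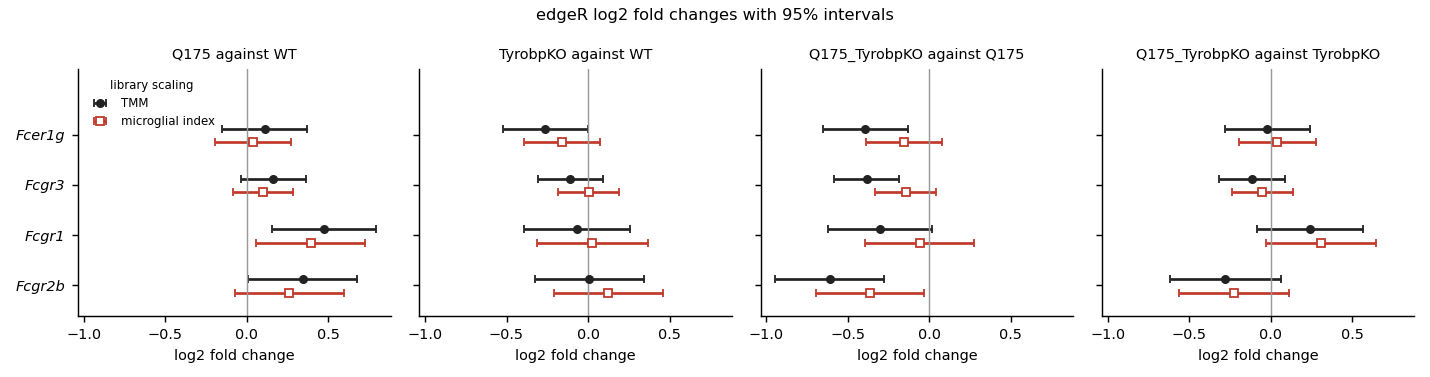
Log2 fold changes of the 4 tested members in 4 genotype contrasts, from edgeR with TMM scaling (black circles) and with libraries scaled by the microglial index (open red squares). Bars are approximate 95% intervals from the SE and the normal distribution, narrower than the edgeR test implies. The TMM bars of Fcgr2b in Q175 against WT and of Fcer1g in TyrobpKO against WT leave out 0, with edgeR unadjusted p of 0.0543 and 0.0587. In Q175_TyrobpKO against Q175 the TMM values lie between -0.61 and -0.30, and the index-scaled values lie nearer 0 for every member.

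Across the 24 libraries, Fcer1g and Fcgr3 followed the microglial index closely and Fcgr1 did not. Pearson's r with the index was 0.86 for Fcer1g (Spearman's rho 0.84) and 0.87 for Fcgr3 (rho 0.80), each with a permutation p of 1e-05 for r, the smallest that 100000 permutations can give, and an adjusted p of 5e-05 over 10 relations. For Fcgr2b r was 0.67 (rho 0.66, permutation p = 0.00047 and 0.00075, adjusted 0.00117 and 0.00187). For Fcgr1 r was 0.41 (rho 0.29, permutation p = 0.0483 and 0.169, adjusted 0.069 and 0.187). Leaving out the 2 libraries farthest from the median of the index gave r of 0.80, 0.82, 0.73 and 0.28 in that order. After genotype and sex means were taken out, r was 0.75 for Fcer1g, 0.76 for Fcgr3, 0.45 for Fcgr2b and 0.22 for Fcgr1. For Fcer1g and Fcgr3 the relation was thus present within genotypes, and no test was made of these values. Among the members, Fcer1g and Fcgr3 were most alike (r = 0.73, rho = 0.76, permutation p = 4e-05 and 6e-05, adjusted 0.000133 and 0.0002), and Fcgr1 had r of 0.27 to 0.38 with the other 3, with adjusted permutation p from 0.0851 to 0.198. All values in a library share its depth and scaling factor.

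**Figure D4:**
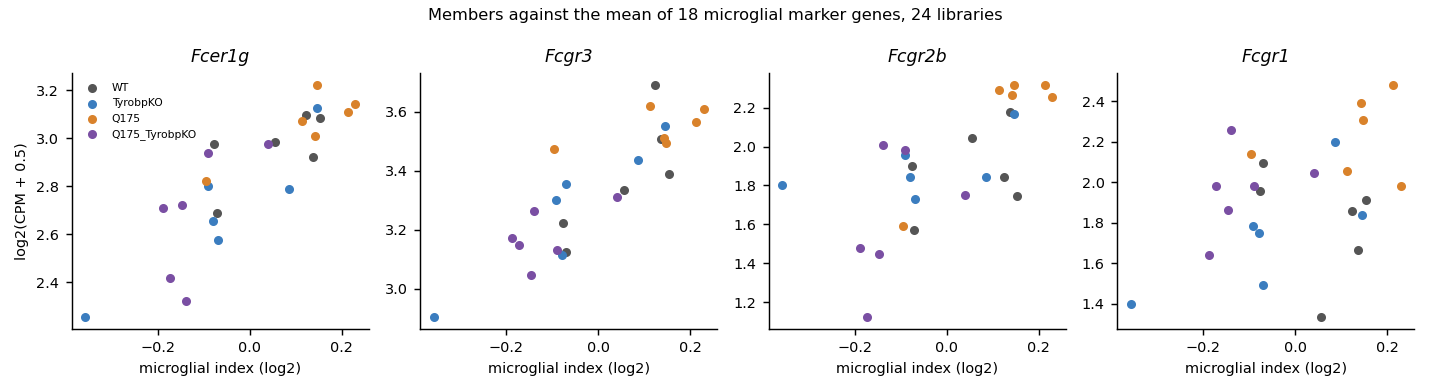
Log2(CPM + 0.5) of the 4 tested members against the microglial index (mean log2 level of 18 marker genes relative to TMM scaling) in 24 libraries, coloured by genotype. Fcer1g and Fcgr3 lie along a line (r = 0.86 and 0.87), and Fcgr1 is scattered (r = 0.41).

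The 10 genes whose levels were most like those of the members, by mean Pearson correlation over 24 libraries, included Mpeg1 (0.68, the pore-forming perforin-2 of macrophages), Ctss (0.67, cathepsin S), Itgb2 (0.65, the beta chain of complement receptor 3), Lyz2 (0.65, a lysozyme), Cd52 (0.63), Itgax (0.62, the alpha chain of complement receptor 4), Etfdh (0.62), Cd14 (0.61, the lipopolysaccharide co-receptor) and Il13ra1 (0.61). By Spearman's rho, 6 of the 10 were again in the leading 10, and after genotype and sex means were taken out, 1 was. The closest gene to Fcer1g was Ctss (r = 0.84), and Gng5 (0.79) was also among its closest, and the closest to Fcgr3 were Ctss (0.78), Fyb (0.77) and Mpeg1 (0.77). Among the genes closest to Fcgr2b were Itgb2 (0.74) and Mylip (0.73). Fcgr1 had a different set, Fgl2 (0.80), Lpo (0.79) and Atp10b (0.78). These correlations are a description over 24 libraries, with no test.

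The balance of activating and inhibitory receptors was described per library as the summed level per kb of Fcgr1, Fcgr3 and Fcgr4 over that of Fcgr2b. The mean ratio was 13.1 ± 2.20 (SD, n = 6) for WT, 11.9 ± 1.85 for TyrobpKO, 12.1 ± 2.66 for Q175 and 14.7 ± 3.91 for Q175_TyrobpKO. Without replicate 3 the Q175 mean was 12.3. Replicate 1 had the highest Q175 ratio, 17.5, and the other Q175 libraries lay between 10.5 and 11.4. The Q175 median was 11.2. The groups overlapped, with ranges of 10.8 to 16.02, 9.60 to 14.3, 10.5 to 17.5 and 10.4 to 21.6. Every range held part of each of the others, and no test was made of the ratio.

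Other receptors for the constant part of antibodies, and relatives of the Fc receptors, showed no called difference. Of 14 genes on that list, 6 could be tested and edgeR called none in any of the 7 contrasts. In Q175 against WT 1 was lower at an unadjusted p under 0.05 (22.6% of all genes, either direction). It was Fcgrt, the neonatal Fc receptor that recycles IgG (12.8 ± 2.30 CPM in WT, log2 fold change -0.22 ± 0.099, edgeR adjusted p = 0.176). At that unadjusted edgeR p, 1 was higher in TyrobpKO against WT (6.45%) and 2 were lower in Q175_TyrobpKO against WT (22.3%). The interaction (3.59%) and the average deletion effect (8.89%) had 1 lower each. Fcrls, a microglial Fc receptor-like gene, stood at 20.5 ± 3.01 CPM with Q175 alone and 17.7 ± 1.72 with the deletion added (-0.20 ± 0.098, edgeR adjusted p = 0.830). Fcrl1, a B cell relative, was under 1 CPM in each group mean, and Trim21, a cytosolic antibody receptor, had 1.99 ± 0.445 CPM in WT and 2.60 ± 0.659 in Q175. Transcripts of the ligands were also present. Ighm, the heavy chain of IgM, averaged 37.6 ± 14.1 CPM over WT libraries, 58.2 ± 10.5 over TyrobpKO, 23.2 ± 13.4 over Q175 and 32.4 ± 18.2 over Q175_TyrobpKO, and Ighg2c, an IgG heavy chain, 2.44 ± 1.29, 4.21 ± 1.76, 2.11 ± 1.90 and 2.81 ± 2.09. Jchain, which joins IgM and IgA chains, had 0.411 ± 0.171 CPM in WT. The B cell gene Ms4a1 was at 0 in 20 of 24 libraries, and none of the 3 immunoglobulin and B lineage genes tested was called or had an unadjusted p under 0.05 in any contrast.

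Among adaptors and receptors that pair with Fcer1g, 5 of 14 in the table could be tested. Tyrobp itself was called lower in both deletion contrasts (log2 fold change -4.52 ± 0.18 without the Q175 allele and -5.01 ± 0.19 with it, edgeR adjusted p = 5.93e-16 and 1.06e-16). Oscar, a collagen receptor that signals through Fcer1g, was called lower in Q175 than in WT, at 1.60 ± 0.455 against 3.11 ± 0.812 CPM (-0.95 ± 0.21, edgeR adjusted p = 0.00311, and -1.05 ± 0.21, adjusted p = 0.00214, without Q175 replicate 3). In Q175_TyrobpKO against TyrobpKO it was -0.67 ± 0.21 (edgeR adjusted p = 0.0515). Oscar did not differ beyond its error between Q175_TyrobpKO and Q175 (0.06 ± 0.21). In Q175 against WT edgeR called 11 of 12 genes of the striatal neuron list lower and 0 of 18 of the microglial index, against 5.47% of all genes. The cell type behind the Oscar difference was not tested. In the comparison of Q175_TyrobpKO with Q175, Cd300c2 and Cd300lf, members of the CD300 receptor family, had log2 fold changes of -0.34 ± 0.18 and 0.73 ± 0.41 (edgeR adjusted p = 0.837 and 0.843).

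Of the kinases and signal proteins below ITAM receptors, 28 of 29 were tested and 5 were called higher in Q175 than in WT, with none lower, where edgeR called 4.15% of all genes higher and 5.47% lower. The same 5 were called without Q175 replicate 3. The 5 were Pik3ap1, an adaptor for PI3 kinase (0.62 ± 0.18, edgeR adjusted p = 0.0230), Vav3, an exchange factor for Rac (0.49 ± 0.14, adjusted p = 0.0195), Arpc1b, a subunit of the actin-branching complex (0.43 ± 0.12, adjusted p = 0.0208), Pik3r5, a regulator of PI3 kinase gamma (0.41 ± 0.13, adjusted p = 0.0412), and Pik3cd, the delta catalytic subunit (0.33 ± 0.069, adjusted p = 0.00208). Pik3r5 and Arpc1b were named after their values were seen. Of these, Vav3 (0.58 ± 0.14), Pik3cd (0.28 ± 0.068) and Pik3r5 (0.43 ± 0.13) were also called by edgeR in Q175_TyrobpKO against TyrobpKO, where no gene of the list was called lower and edgeR called 2.78% of all genes higher. These genes are also expressed by cells other than microglia, and the striatal neuron list had 11 of 12 genes called lower in Q175, so the cell type behind the differences was not tested. In Q175_TyrobpKO against Q175 none of the 28 was called, 25 had negative log2 fold changes and the median was -0.21, near the -0.25 of the microglial index. Lyn, the Src-family kinase that phosphorylates the ITAM, averaged 8.58 ± 0.934 CPM for Q175 and 6.75 ± 1.07 for Q175_TyrobpKO (-0.35 ± 0.13, edgeR adjusted p = 0.712), and Pik3ap1 had -0.49 ± 0.17 (adjusted p = 0.700).

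Of 17 tested phosphatases and inhibitory proteins, edgeR called 3 lower in Q175 than in WT and none higher, against 5.47% and 4.15% of all genes. They were Inppl1 (SHIP2, a 5-phosphatase of inositol lipids, -0.38 ± 0.075, edgeR adjusted p = 0.00108), Dok3 (an adaptor that dampens ITAM signals, from 11.6 ± 2.98 to 6.90 ± 0.592 CPM, -0.75 ± 0.15, adjusted p = 0.00122) and Cd72 (an ITIM receptor, -0.80 ± 0.25, adjusted p = 0.0442, named after its values were seen). Without Q175 replicate 3, Inppl1 and Dok3 were called and Cd72 was not (-0.69 ± 0.26, edgeR adjusted p = 0.104). The cell type behind these 3 differences was not tested. Inppl1 (-0.32 ± 0.075) and Dok3 (-0.57 ± 0.15) were also called lower by edgeR in Q175_TyrobpKO against TyrobpKO, as was Pecam1, an ITIM-bearing adhesion molecule of endothelium named after its value was seen (-0.29 ± 0.086, adjusted p = 0.0460), where 3.08% of all genes were called lower. Of 10 endothelial markers, 9 had negative log2 fold changes in that contrast (median -0.26), 2 were called lower by edgeR and 6 had an unadjusted p under 0.05, and their part in the Pecam1 value was not tested. Cd22, a B cell and microglial ITIM receptor, was called lower in the average deletion effect (-1.48 ± 0.32, edgeR adjusted p = 0.0354, where 0.142% of all genes were called lower), with 0.405 ± 0.0935 CPM in WT and 0.158 ± 0.101 in TyrobpKO. It lies on chromosome 7, 447.8 kb from the deleted Tyrobp, and the part of that position in its level was not tested. Ptprc (CD45), which activates Src-family kinases at Fc receptors, averaged 7.02 ± 0.806 CPM for Q175 against 4.44 ± 1.61 for Q175_TyrobpKO (-0.67 ± 0.16, edgeR adjusted p = 0.152).

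The phagocyte oxidase, which Fc receptors trigger during uptake, had all 5 genes tested. All had negative log2 fold changes in Q175_TyrobpKO against Q175 (50.3% of all genes). There 0 were called by edgeR (0.158% of all genes) and 3 had an unadjusted p under 0.05 (6.04%). Ncf1 averaged 7.24 ± 1.02 CPM for Q175 and 5.30 ± 0.476 for Q175_TyrobpKO (-0.45 ± 0.12, edgeR adjusted p = 0.235), and Cybb, the catalytic subunit, had -1.37 ± 0.52 (adjusted p = 0.746). In Q175 against WT, Cybb was at 0.920 ± 0.507 against 0.424 ± 0.198 CPM (1.16 ± 0.51, edgeR adjusted p = 0.164), and 0 of 5 were called (9.63% of all genes).

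**Figure D5:**
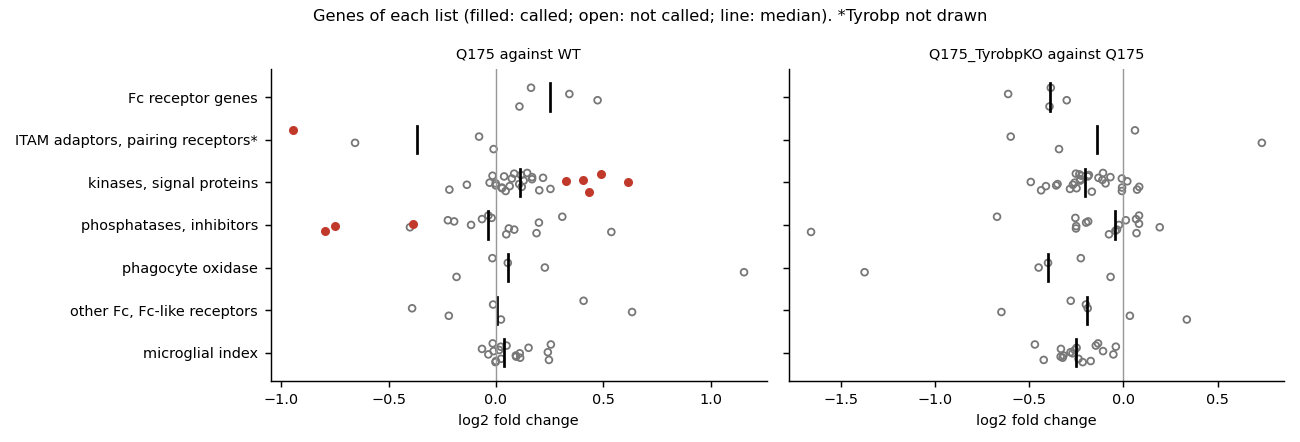
Log2 fold changes of single genes in 7 lists, for Q175 against WT (left) and Q175_TyrobpKO against Q175 (right), with called genes filled, others open and a line at each median. In the left panel 5 signal proteins are filled above 0 and 3 inhibitory proteins below 0, and in the right panel the Fc receptor genes (median -0.39) and the microglial index (median -0.25) all lie below 0 with none called.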

How the data were processed

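RNA of 24 striata was sequenced. The authors deposited a table of integer read counts without normalization for 54532 genes, with each gene's length in bases. Per the submitters' processing notes, STAR, featureCounts and DESeq2 were used and GRCh38, a human build, is named; no version or role is given. The coordinates in the deposited table are those of mouse GENCODE M21 on GRCm38 for 98.3% of genes, so the notes' build was not used. Neither the use of strand nor the handling of reads that match several genes is given in the sources used here, and the genes that overlap members had 0 reads.

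Libraries held 25482686 to 34626720 counts. Labels gave genotype and sex, and replicates were numbered in accession order (males 1 to 3, females 4 to 6). Counts were fitted with edgeR 4.0.16 in R 4.3.3: filterByExpr on genotype (19667 genes left), TMM, 1 mean per genotype and a sex term over all 24 libraries, robust quasi-likelihood test, Benjamini-Hochberg adjustment over all genes tested, and a call at adjusted p under 0.05. The biological coefficient of variation was 16.2%. The SE of a log2 fold change was taken from the test statistic. CPM were TMM-scaled, and 0.5 was added before logs. Alternatives were DESeq2 size factors, library totals, scaling by the microglial index, the DESeq2 1.42.0 Wald test, limma-voom (limma 3.58.1), 2 other filters on low counts, no sex term, pairwise fits, each sex alone and leaving out each library. The fit was tested on simulated data.

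The members and the 13 other gene lists were chosen with earlier results of these data known, so no p was adjusted over a list alone. Named genes are the members, Tyrobp and Htt; from each pathway list those called in a deletion contrast and the 2 of smallest p in Q175_TyrobpKO against Q175 and in Q175 against WT; and the closest genes by correlation. Others are said to be named after their values were seen. A few genes that this rule names are not reported here.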

Additional observations from a re-analysis of the deposited data

Results flagged for a closer look

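In 28 groups of 6 libraries, the highest and the lowest value were compared with the rest, and 2 stood apart by more than Dixon's 95% critical value (0.625 for 6 samples). Chance flags about 1 in 20 groups. Fcgr2b in Q175 replicate 1 was the lowest of its group, at 2.52 CPM, with the nearest library at 4.28. The ratio of activating to inhibitory receptors in the same library was the highest of its group, at 17.5, with the nearest at 11.4, and it holds the same Fcgr2b value in its denominator. That library also had the lowest microglial index of the Q175 group, at -0.10, and 0 reads of Fcgr4. Without it, Fcgr2b in Q175_TyrobpKO against Q175 was -0.71 ± 0.17 (log2, edgeR adjusted p = 0.0818).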

How the results depend on the processing

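No paired analysis was possible because the replicate numbers were given in accession order and pair no animals. Of 1372 values of members over contrasts and alternatives, 1330 kept their direction and side of the threshold, 5 newly passed it and 37 changed sign. The number of members called in Q175 against WT was 1 (Fcgr1) with library totals without scaling factors and 1 with the DESeq2 Wald test, and 0 to 1 when single libraries were left out. Relative to the microglial index, 0 to 1 members were called in Q175_TyrobpKO against Q175 when single libraries were left out. In the other contrasts the count stayed at 0 under every alternative run. The values that changed sign were small in the main test. In TyrobpKO against WT, Fcgr1 was 0.026 with index scaling and 0.021 in females alone, Fcgr2b -0.033 in females alone, and Fcgr3 0.0053 with index scaling and 0.071 in females alone. In Q175_TyrobpKO against TyrobpKO, Fcer1g was 0.039 with library totals, 0.042 with index scaling and 0.123 in males alone, and Fcgr3 was 0.036 in males alone. The interaction for Fcer1g was 0.0038 with index scaling and 0.045 in males alone. With single libraries left out, Fcer1g in Q175_TyrobpKO against TyrobpKO ran from -0.095 to 0.081, Fcgr1 in TyrobpKO against WT from -0.181 to 0.018 and Fcgr2b there from -0.055 to 0.065. Relative to the index, Fcgr1 in TyrobpKO against WT ran from -0.070 to 0.138 and in the average deletion effect from -0.063 to 0.039, and Fcgr3 in TyrobpKO against WT from -0.024 to 0.062. The activating to inhibitory ratio without length scaling was 4.23 for WT, 3.84 for TyrobpKO, 3.97 for Q175 and 4.83 for Q175_TyrobpKO, and with Fcgr3 alone in the numerator 10.5 in WT and 9.64 in TyrobpKO. Of the 10 genes most like the members, 6 were shared with Spearman's rho and 1 after genotype and sex means were taken out. The cause of these changes was not tested. Depth limits Fcgr4 above all.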

Other observations

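The genotype effects on the members were compared between females and males. For Fcgr3 in TyrobpKO against WT, the female minus male difference of log2 fold changes was 0.38 ± 0.20 (edgeR unadjusted p = 0.067, adjusted p = 0.653). For Q175_TyrobpKO against Q175, the same difference was -0.13 ± 0.27 for Fcer1g, 0.21 ± 0.34 for Fcgr1, 0.02 ± 0.36 for Fcgr2b and 0.08 ± 0.20 for Fcgr3 (edgeR adjusted p of 0.979 or more).

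Tested genes on either side of Fcgr1 were read as a check of reads shared with neighbours. Txnip, on the other side of Fcgr1 from Gm20628, had -0.15 ± 0.13 in Q175 against WT, and Gm20628, which lies 12620 bases from Fcgr1, had 0.43 ± 0.19 (edgeR adjusted p = 0.551 and 0.174).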
